A study of Mus musculus with 6 samples.

Results

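The kallikrein and secretoglobin genes of the mouse were examined in mammary tumours with and without serglycin. Members were the genes whose platform annotation gave 1 symbol beginning with Klk or Scgb and a digit, and each gene was read from its probe set of highest mean over all 6 arrays. The rule found 47 of 22180 genes, of which 24 were kallikreins and 23 secretoglobins. The families were chosen by the measured differences of Klk1 and Scgb2b26 between the genotypes in these same tumours, so those 2 differences are given as a description, without a test. A further 6 probe sets of the families carried several symbols and were left out. Of the members, 44 lie on chromosome 7.

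The tumours came from 3 SG-/- mice, which lack serglycin, and 3 SG+/- mice, which keep 1 copy of the gene. PyMT, the middle T oncogene of polyoma virus, was present as a transgene in all 6 mice and gives rise to mammary tumours. The labels name no age, no promoter of the transgene and no wild-type group, so the comparison is with heterozygous tumours. RNA of each tumour was measured on 1 whole-transcript array, and values are log2 expression values after the robust multi-array average (RMA). Each difference is the SG-/- mean minus the SG+/- mean, in log2 units. In bulk tissue, more cells of a type and more RNA per cell cannot be told apart.

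Tissue kallikreins are secreted serine proteases. Klk1 releases kinins from kininogens and is made in salivary gland, kidney and pancreas. In the mouse the gene has been copied many times into the Klk1b cluster, whose proteins include binding partners and processing enzymes of growth factors in the submandibular gland. Klk4 to Klk15 are single-copy relatives, several of which act in the skin, where they cut the junctions of shed cells. Secretoglobins are small secreted proteins that form dimers. In mouse saliva an alpha subunit, encoded by Scgb1b27, pairs with a beta-gamma subunit encoded by Scgb2b26 or Scgb2b27 to form androgen-binding protein.

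The targeted gene, Srgn, stood at 5.07, 5.04 and 4.89 in SG-/- tumours (values throughout in the order of replicates 1, 2 and 3) and at 6.76, 6.43 and 6.35 in SG+/- tumours, which fits the labels. Luminal epithelial markers were present in each tumour, with Krt8, a keratin of luminal cells, between 12.18 and 12.32 in SG-/- tumours and between 12.06 and 12.14 in SG+/- tumours. The arrays differed in spread, which touches dim genes. For 1390 odorant and pheromone receptor genes, which mammary tissue is not known to use, the array mean was 4.58, 5.13 and 5.87 in SG-/- tumours, against 4.58, 5.63 and 5.50 in SG+/- tumours. SG-/- replicate 3 stood apart, with the highest receptor mean and the narrowest spread of all values, an interquartile range of 2.56 against 2.85 to 3.15 on the other arrays. Of the 47 members, 15 lay above a dim level of 6.09 (the 40th percentile of probe set means) on all arrays, 24 lay at or under it on all arrays, and 8 lay on both sides.

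The Klk1b genes are close copies of Klk1, which the sequence around their starts shows. RefSeq windows of the build GRCm38.p6, from 250 bases before to 50 after the annotated start, were at hand for 40 of the 47 members. The window of Klk1 (chr7:44225110-44225409, plus strand) is printed with those of Klk1b5 (chr7:44216224-44216523, plus strand) and Klk1b22 (chr7:44112423-44112722, plus strand), since these relatives had their highest level in the same tumour as Klk1. Capitals mark the longest run that each relative shares with the Klk1 window, 18 bases in Klk1b5 and 31 in Klk1b22, and in Klk1 they mark both runs. The run shared with Klk1b22 lies after the annotated start in Klk1 and before it in Klk1b22.
Klk1: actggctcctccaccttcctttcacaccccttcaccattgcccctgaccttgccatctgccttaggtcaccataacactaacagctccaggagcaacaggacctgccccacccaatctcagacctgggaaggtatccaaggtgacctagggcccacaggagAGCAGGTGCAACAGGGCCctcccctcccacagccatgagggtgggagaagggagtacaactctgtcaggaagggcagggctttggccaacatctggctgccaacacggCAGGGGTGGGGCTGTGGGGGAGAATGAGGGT
Klk1b5: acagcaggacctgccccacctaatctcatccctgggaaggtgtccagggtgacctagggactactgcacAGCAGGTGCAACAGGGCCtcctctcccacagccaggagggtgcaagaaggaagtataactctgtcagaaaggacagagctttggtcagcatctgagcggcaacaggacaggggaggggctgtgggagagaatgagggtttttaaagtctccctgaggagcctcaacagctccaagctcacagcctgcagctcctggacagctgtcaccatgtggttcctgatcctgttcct
Klk1b22: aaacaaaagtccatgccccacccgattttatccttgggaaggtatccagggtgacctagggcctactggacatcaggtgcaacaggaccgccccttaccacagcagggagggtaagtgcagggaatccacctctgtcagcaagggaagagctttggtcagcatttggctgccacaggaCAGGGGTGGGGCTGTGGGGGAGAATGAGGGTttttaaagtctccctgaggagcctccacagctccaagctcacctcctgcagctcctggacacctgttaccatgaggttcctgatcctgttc
The annotated start of Klk1 lies further upstream in the shared sequence, so that its window ends where that of Klk1b22 goes on. The letters TTTAAA read alike on both strands. They occur in 10 of 11 windows of Klk1 and Klk1b genes and in 13.2% of all 32851 windows. The Klk1 window lacks them, but it ends before the place where Klk1b22 has them. In local alignments with the Klk1 window, Klk1b5 was 85.0% identical over 207 aligned columns, Klk1b22 81.2% over 207 and Klk1b11 81.0% over 211. Klk1b9 was the most alike, at 85.7% over 217 columns, and Klk1b8 the least, at 76.85% over 203. Such likeness can extend to the transcripts, and probe sequences are not in the files used here. Which copy a Klk1b signal comes from is therefore uncertain.

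Klk1 stood at 9.02, 10.40 and 6.74 in SG-/- tumours, against 4.58, 3.99 and 4.25 in SG+/- tumours. All SG-/- tumours lay above all SG+/- tumours, and the SG-/- tumours spread over several log2 units while the SG+/- values lay close together, under the dim level. The mean was 8.72 ± 1.85 in SG-/- and 4.27 ± 0.30 in SG+/- tumours (SD, n = 3 each), a difference of 4.45. Its standard error in limma, which eBayes adjusts with the spread of all genes, was 0.82, so it does not follow from these SDs alone. Without SG-/- replicate 2, the tumour with the highest level, the difference was 3.61, and without SG-/- replicate 3 it was 5.44.

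Klk1b5, the next kallikrein gene on the chromosome, stood at 7.08, 8.25 and 6.79 in SG-/- tumours and at 6.41, 6.26 and 6.58 in SG+/- tumours. The tumours took the same order as for Klk1 in 14 of the 15 pairs that 6 tumours form, with SG-/- replicate 2 again highest. Its difference was 0.96 with a 95% confidence interval from 0.11 to 1.81 (limma adjusted p = 1.00). It was 0.52 without SG-/- replicate 2, and 1.54 when limma weighted the arrays by their quality. Klk1b11 stood at 8.70, 8.87 and 8.68 in SG-/- tumours and at 7.26, 8.001 and 8.25 in SG+/- tumours. Here the SG-/- tumours lay close together and the SG+/- tumours were spread, the reverse of Klk1. The difference was 0.91 with an interval from 0.31 to 1.51 (limma adjusted p = 1.00).

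Klk1b22, one of the proteins that bind epidermal growth factor, stood at 4.70, 5.68 and 3.37 in SG-/- tumours and at 4.14, 3.81 and 3.94 in SG+/- tumours. SG-/- replicate 2 was again the highest, but SG-/- replicate 3 was the lowest of all, so the genotypes overlapped. The difference was 0.62 (limma adjusted p = 1.00). Leaving out SG-/- replicate 2 gave 0.07 and leaving out SG-/- replicate 3 gave 1.23. Klk1b27 stood at 5.06, 3.95 and 3.85 in SG-/- tumours and at 4.73, 4.64 and 3.95 in SG+/- tumours, a difference of -0.15 with both genotypes spread over the same range. Both genes lay under the dim level in every tumour. The other 7 members of this group ranged by less than 1 over the tumours, with differences from -0.10 for Klk1b24 to 0.15 for Klk1b8. Klk1b9, whose window was most like that of Klk1 and which also binds epidermal growth factor, differed by 0.10.

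**Figure D1:**
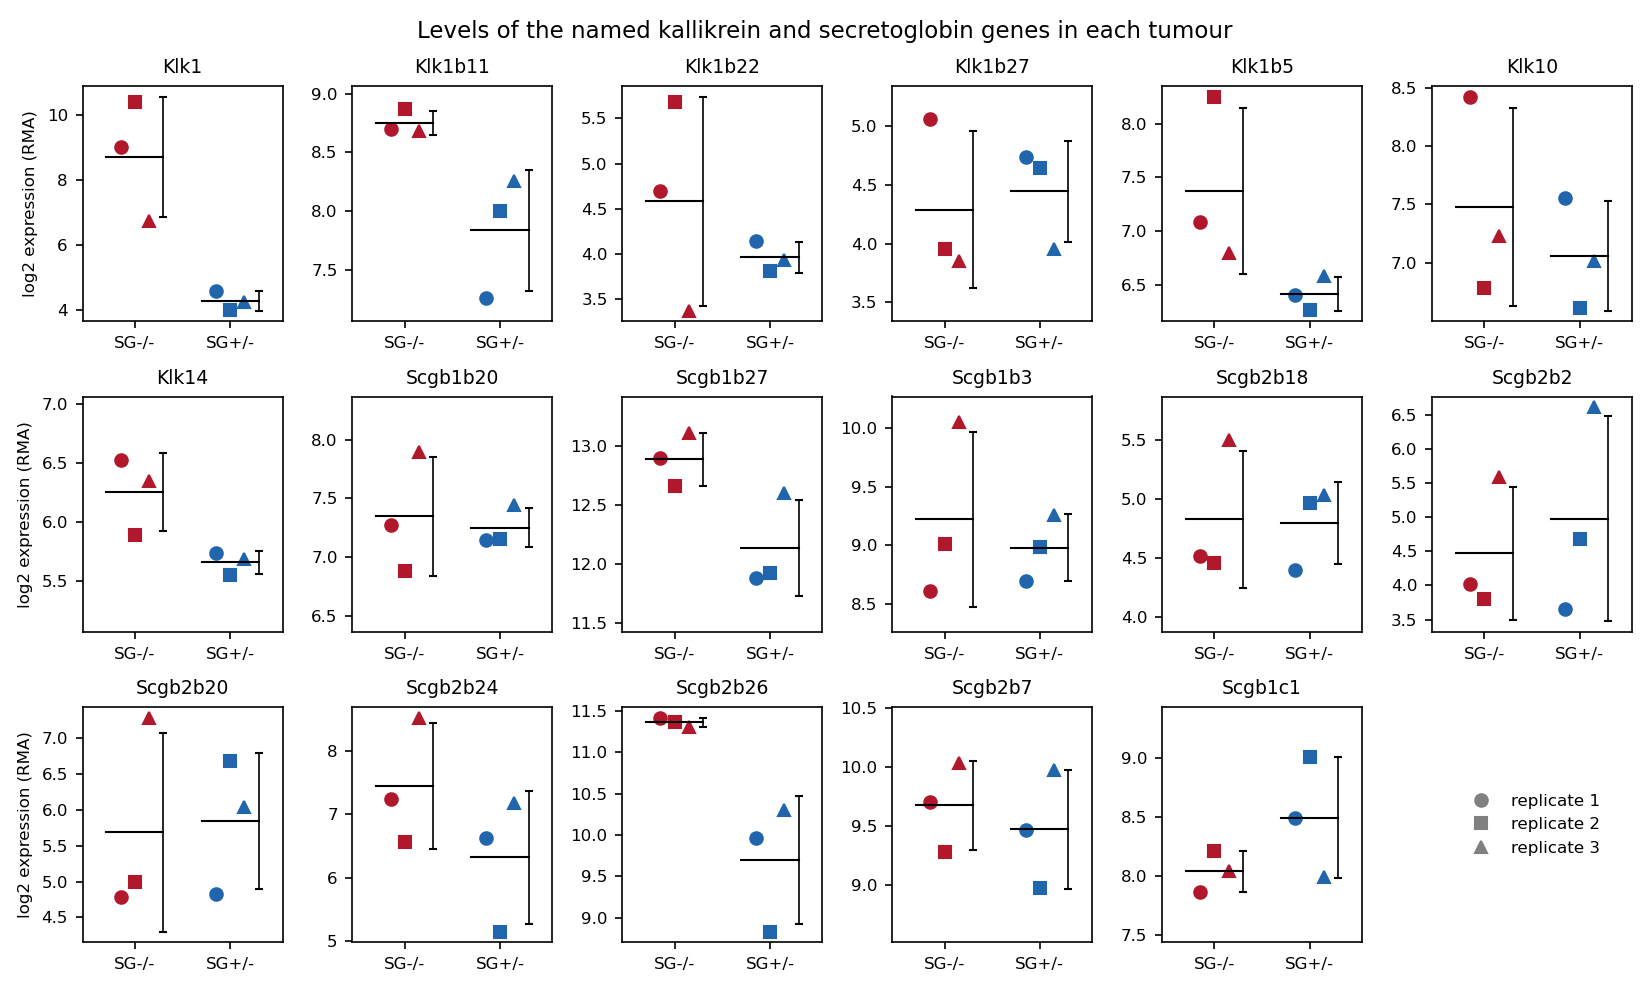
Log2 expression of the 17 members named by the rule, with 1 panel per gene and its own axis. Points are single tumours (red SG-/-, blue SG+/-), horizontal lines are means and bars the SD of 3 tumours. Klk1 and Scgb2b26 are separated by genotype, with the wide spread in SG-/- tumours for Klk1 and in SG+/- tumours for Scgb2b26.

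Among Klk4 to Klk15, 7 of 12 lay higher and 5 lower in SG-/- tumours, and the median of the 12 differences was 0.07. Klk14, a trypsin-like protease of shedding skin, stood at 6.53, 5.89 and 6.35 in SG-/- tumours and at 5.73, 5.55 and 5.69 in SG+/- tumours. The genotypes did not overlap, and the gap between SG-/- replicate 2 and SG+/- replicate 1 was narrow. The difference was 0.60 with a 95% interval from 0.16 to 1.04 (limma adjusted p = 1.00), and 0.34 with array weights. Klk13 was also higher without overlap, by 0.20, and Klk15 lower without overlap, with a difference of -0.25. Both lay under the dim level in every tumour. Klk10, which is known in human breast for its loss in carcinoma, stood at 8.42, 6.78 and 7.23 in SG-/- tumours and at 7.55, 6.62 and 7.02 in SG+/- tumours. Its difference of 0.41 rested on SG-/- replicate 1, without which it was -0.06. Klk5 and Klk7, which act with Klk14 in skin, differed by -0.18 and -0.02. Klk6, a protease of nervous tissue, differed by 0.25, Klk8, also called neuropsin, by 0.09 and Klk4, which processes enamel matrix, by -0.11. The differences of Klk9, Klk11 and Klk12 were 0.08, 0.05 and -0.01.

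The windows around the starts of the Scgb2b genes are similarly alike. Those of Scgb2b26 (chr7:33944936-33945235, minus strand), Scgb2b24 (chr7:33739246-33739545, minus strand) and Scgb2b27 (chr7:34013893-34014192, minus strand) are printed because these neighbours differed in how far they followed Scgb2b26. Capitals mark the longest run shared with Scgb2b26, 38 bases in Scgb2b24 and 41 in Scgb2b27, and both runs in Scgb2b26. The run shared with Scgb2b24 lies wholly after the annotated start in both genes. The run shared with Scgb2b27 lies before the start in Scgb2b26 and spans it in Scgb2b27.
Scgb2b26: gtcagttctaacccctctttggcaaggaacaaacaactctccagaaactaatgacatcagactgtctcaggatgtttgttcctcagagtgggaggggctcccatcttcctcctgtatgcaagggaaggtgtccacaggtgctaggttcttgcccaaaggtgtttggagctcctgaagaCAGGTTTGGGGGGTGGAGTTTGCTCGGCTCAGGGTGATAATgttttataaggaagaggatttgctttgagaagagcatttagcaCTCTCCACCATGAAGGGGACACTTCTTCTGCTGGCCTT
Scgb2b24: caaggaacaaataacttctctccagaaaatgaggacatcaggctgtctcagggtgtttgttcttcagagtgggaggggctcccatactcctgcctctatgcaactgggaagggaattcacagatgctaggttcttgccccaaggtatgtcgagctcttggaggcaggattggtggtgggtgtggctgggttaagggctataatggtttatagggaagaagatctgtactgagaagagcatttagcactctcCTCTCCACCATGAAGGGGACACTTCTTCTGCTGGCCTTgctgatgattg
Scgb2b27: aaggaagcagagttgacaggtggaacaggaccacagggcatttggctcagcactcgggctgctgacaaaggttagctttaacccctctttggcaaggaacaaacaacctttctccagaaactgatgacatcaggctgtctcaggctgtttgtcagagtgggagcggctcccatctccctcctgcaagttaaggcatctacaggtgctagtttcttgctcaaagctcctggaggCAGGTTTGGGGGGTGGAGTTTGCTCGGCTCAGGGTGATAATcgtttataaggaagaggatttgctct
TATAAA, read on either strand, occurs in 9 of 11 Scgb2b windows and in 13.6% of all windows. TGTTCT, a core that some steroid receptors bind, occurs on either strand in 7 of 11 Scgb2b windows, in 1 of 11 windows of Klk1 and Klk1b genes, and in 19% of all windows. It is in the window of Scgb2b24 and not in those of Scgb2b26 and Scgb2b27. The palindromic steroid response element built on it was in no member's window and in 0.00913% of all windows. In local alignments Scgb2b27 was 83.7% identical to Scgb2b26 over 246 columns and Scgb2b24 82.1% over 290. Some probe sets carry several Scgb1b or several Scgb2b symbols. Without probe sequences, which copy an Scgb1b or Scgb2b signal comes from is uncertain, as for the Klk1b genes.

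Scgb2b26 stood at 11.42, 11.36 and 11.30 in SG-/- tumours, against 9.96, 8.83 and 10.31 in SG+/- tumours. All SG-/- tumours lay above all SG+/- tumours and close together, while SG+/- replicate 2 lay below the rest. The mean was 11.36 ± 0.06 in SG-/- and 9.70 ± 0.77 in SG+/- tumours (SD, n = 3 each), a difference of 1.66. Its standard error in limma, adjusted by eBayes as for Klk1, was 0.36. Leaving out SG+/- replicate 2 gave 1.23, and leaving out SG+/- replicate 3 gave 1.96.

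Scgb1b27, the alpha subunit, stood at 12.90, 12.66 and 13.11 in SG-/- tumours and at 11.88, 11.92 and 12.61 in SG+/- tumours. The genotypes did not overlap, but SG-/- replicate 2 and SG+/- replicate 3 were only slightly apart. The difference was 0.75 with a 95% interval from 0.21 to 1.30 (limma adjusted p = 1.00), and 0.40 with array weights. Scgb2b27, the other salivary beta-gamma subunit and the gene between Scgb2b26 and Scgb1b27 among measured members, stood at 13.39, 13.27 and 13.58 in SG-/- tumours and at 13.18, 12.99 and 13.55 in SG+/- tumours. The genotypes overlapped, and the difference was 0.17 with an interval from -0.25 to 0.60 (limma adjusted p = 1.00). Both intervals rest on 3 tumours per genotype, and the difference between the genes was not tested.

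Scgb2b24, a further beta-gamma subunit, stood at 7.24, 6.57 and 8.52 in SG-/- tumours and at 6.62, 5.15 and 7.18 in SG+/- tumours. SG-/- replicate 3 was highest and SG+/- replicate 2 lowest, and the genotypes overlapped. The difference was 1.12 with an interval from -0.39 to 2.63 (limma adjusted p = 1.00). Leaving out SG-/- replicate 3 gave 0.58, leaving out SG+/- replicate 2 gave 0.54, and array weights gave 0.10. Scgb2b7 stood at 9.70, 9.28 and 10.04 in SG-/- tumours and at 9.47, 8.97 and 9.98 in SG+/- tumours, with a difference of 0.20.

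Some secretoglobins took the order of the receptor genes. Scgb2b20 stood at 4.79, 4.99 and 7.28 in SG-/- tumours and at 4.82, 6.68 and 6.04 in SG+/- tumours. All 15 pairs of tumours were ordered as by the receptor mean, and the difference between genotypes was -0.16. Scgb1b3, an alpha subunit gene, stood at 8.61, 9.01 and 10.05 in SG-/- tumours and at 8.69, 8.99 and 9.26 in SG+/- tumours, with 13 of 15 pairs in the receptor order and a difference of 0.24. Its other probe set, which had the lower mean, differed by -0.12. Scgb1b2, Scgb1b30, Scgb2b21 and Scgb2b23-ps also had 13 pairs in that order, which made 6 of 47 members with at least 13, all of them Scgb1b or Scgb2b genes, a share near the 13.2% of all genes. Differences of those 4 ran from -0.12 to 0.08. Klk1 had 5 pairs, Scgb2b26 5 and Scgb1b27 8. When the receptor mean was added to the fit, a step decided on once the values were known, the differences of Klk1, Scgb2b26 and Scgb1b27 were 4.40, 1.65 and 0.76. What part the spread of the arrays has in these secretoglobins was not tested.

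**Figure D2:**
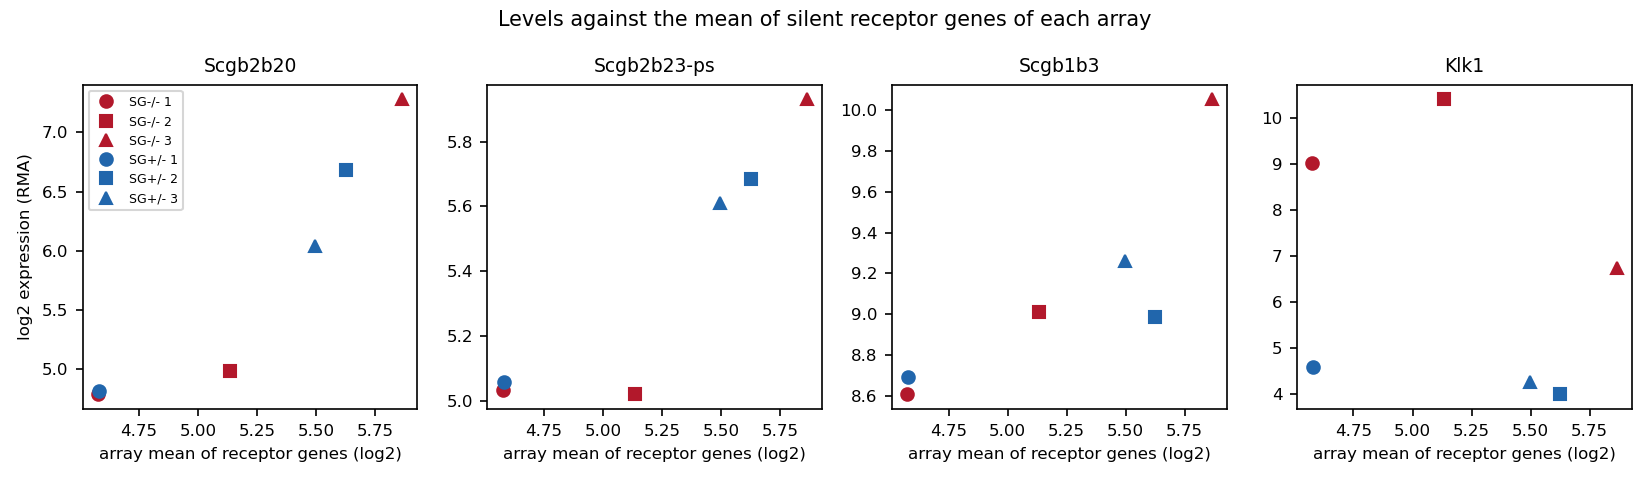
Log2 expression of 4 members (vertical axes) against the mean log2 level of 1390 receptor genes of the same array (horizontal axes), for 6 tumours (red SG-/-, blue SG+/-). Scgb2b20 follows the receptor mean in all 15 pairs of tumours and Klk1 in 5.

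Scgb2b2 stood at 4.02, 3.80 and 5.58 in SG-/- tumours and at 3.65, 4.68 and 6.61 in SG+/- tumours, a difference of -0.51. Scgb2b18 stood at 4.52, 4.46 and 5.50 in SG-/- tumours and at 4.40, 4.96 and 5.04 in SG+/- tumours, a difference of 0.03. In both, replicate 3 of each genotype was the highest of its genotype. Scgb1b20 stood at 7.27, 6.89 and 7.89 in SG-/- tumours and at 7.15, 7.16 and 7.44 in SG+/- tumours, a difference of 0.10. Scgb1c1, a secretoglobin of olfactory mucosa, stood at 7.86, 8.21 and 8.05 in SG-/- tumours and at 8.49, 9.01 and 7.99 in SG+/- tumours. Its difference was -0.46, but SG+/- replicate 3 lay among the SG-/- values (limma adjusted p = 1.00). The airway genes Scgb1a1, Scgb3a1 and Scgb3a2 differed by -0.22, 0.01 and -0.01. The remaining Scgb1b and Scgb2b members, Scgb1b19, Scgb1b24, Scgb2b3, Scgb2b6 and Scgb2b19, lay under the dim level in every tumour, with differences from -0.22 to 0.18.

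Across the families, 29 members lay higher and 18 lower in SG-/- tumours. Their median difference was 0.07, against -0.01 over all 22180 genes, of which 46.3% were higher. Klk1 and Scgb2b26 are left out of the following counts. By limma, 0 of the other 45 members passed an adjusted p of 0.05, and 0% of all genes did. At an unadjusted p of 0.05 there were 4 of these 45, all higher in SG-/- tumours, against 2.11% of all genes, made up of 1.43% higher and 0.685% lower. They were Klk1b5, Klk1b11, Klk14 and Scgb1b27. Genotypes did not overlap in 6 of the 45, 5 higher and 1 lower, where all genes had 6.03% in either direction, 2.84% higher and 3.19% lower. Leaving out SG-/- replicate 3 gave 13, when all genes had 21.6%. Leaving out SG-/- replicate 2 or SG+/- replicate 2 gave 10 each. Fewer tumours make separation easier for any gene, and the share of all genes was not counted for these 2 runs. A range of at least 1 over the 6 tumours was reached by 14 of the 45, against 16.1% of all genes. Since the choice of families drew on this contrast, these shares describe the members and nothing more is read from them.

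**Figure D3:**
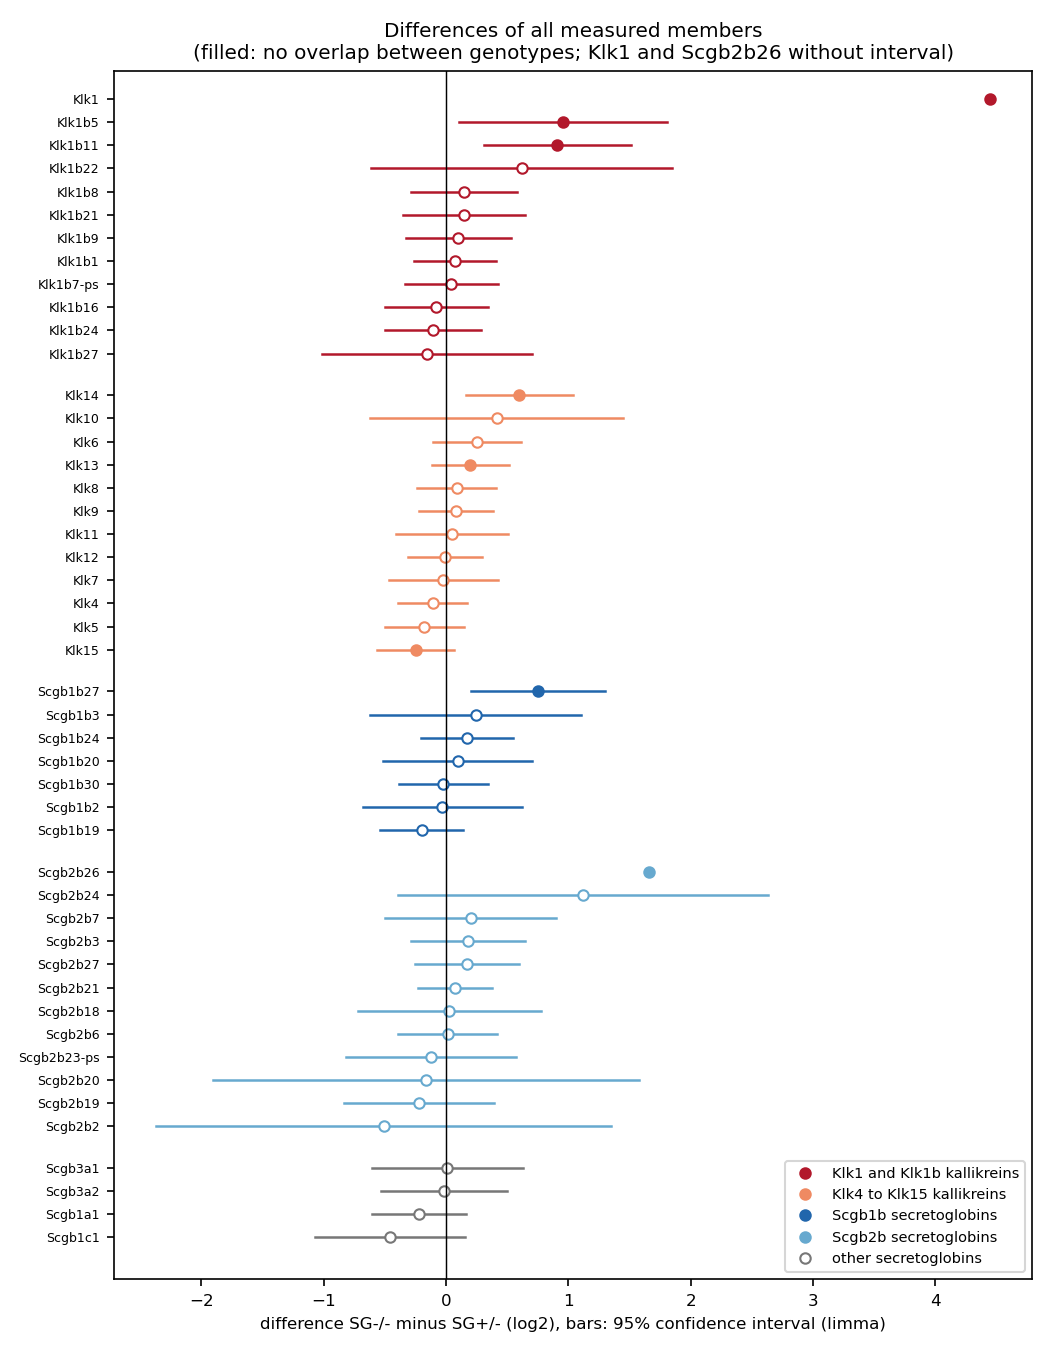
Difference SG-/- minus SG+/- on the log2 scale (horizontal axis) for all 47 members in 5 groups, with 95% confidence intervals from limma for the 45 members other than Klk1 and Scgb2b26, which have points alone. Filled points mark the 8 members whose genotypes did not overlap. Klk1, at 4.45, lies apart from its relatives, and most of the 45 intervals include 0.

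Likeness to Klk1 was measured as the mean absolute difference, over the 6 tumours, between profiles centred on each gene's own mean, so that a small value means alike in pattern and in size. A flat profile has a distance of 2.22 from Klk1. The nearest members were Scgb2b26 (1.57), Klk1b5 (1.75), Klk1b11 (1.82), Klk1b22 (1.91) and Scgb1b27 (1.97), so no member came near in size. Over all genes the nearest was Prol1, a secreted protein of salivary and lacrimal glands, at 0.90. Prol1 stood at 10.40, 10.86 and 6.40 in SG-/- tumours and at 6.52, 5.46 and 7.74 in SG+/- tumours, so that SG-/- replicate 3 lay among the SG+/- tumours. Ogn (1.494), Itprid1 (1.494), Cxcl13 (1.499) and R3hdml (1.51) came next, each with 11 to 13 pairs of tumours in the order of Klk1.

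For Scgb2b26, from which a flat profile has a distance of 0.83, the nearest members were Scgb1b27 (0.48), Klk1b11 (0.53), Klk14 (0.55), Klk1b5 (0.56) and Scgb2b24 (0.57). Over all genes the nearest were Itprid1 (0.26), with all 15 pairs in the same order, Oas2 (0.28), Oas1g (0.31), Itga2 (0.33) and Apol9b (0.35). Oas2 and Oas1g encode antiviral enzymes of the interferon response and Itga2 an integrin that binds collagen. Oas2 stood at 10.15, 10.35 and 10.46 in SG-/- tumours and at 9.33, 8.73 and 9.46 in SG+/- tumours. As in Scgb2b26, SG+/- replicate 2 was the lowest. The distances are a description over 6 tumours, and they draw on the contrast for which Klk1 and Scgb2b26 were chosen.

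Klk1 and most salivary secretory proteins differed in which SG-/- tumour was highest. Bpifa2, the parotid secretory protein, stood at 13.54, 7.26 and 13.64 in SG-/- tumours and at 6.18, 5.98 and 6.47 in SG+/- tumours. Its lowest SG-/- tumour, replicate 2, was the one with the highest Klk1, and its highest, replicate 3, the one with the lowest. Of 17 measured salivary acinar and duct genes, 14 had SG-/- replicate 2 as the lowest of the SG-/- tumours, against 25.2% of all genes. Amy1, salivary amylase, stood at 9.10, 6.29 and 10.03 in SG-/- tumours and at 6.22, 6.94 and 6.74 in SG+/- tumours. Among the 12 Klk1 and Klk1b genes, 5 had SG-/- replicate 2 as the highest of the SG-/- tumours, against 24.7% of all genes. Over all 47 members only 8 had it highest (17.0%), and 25 had it lowest (53.2%), as most of the salivary list did. Of the 3 measured products of the granular tubules of the submandibular gland, Crisp3 was highest in SG-/- replicate 2. Among the SG-/- tumours, Egf and Nrtn were highest in replicate 1, but over all 6 tumours their highest values were in SG+/- tumours. Crisp3 stood at 6.18, 7.01 and 5.32 in SG-/- tumours and at 4.70, 5.44 and 4.89 in SG+/- tumours.

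**Figure D4:**
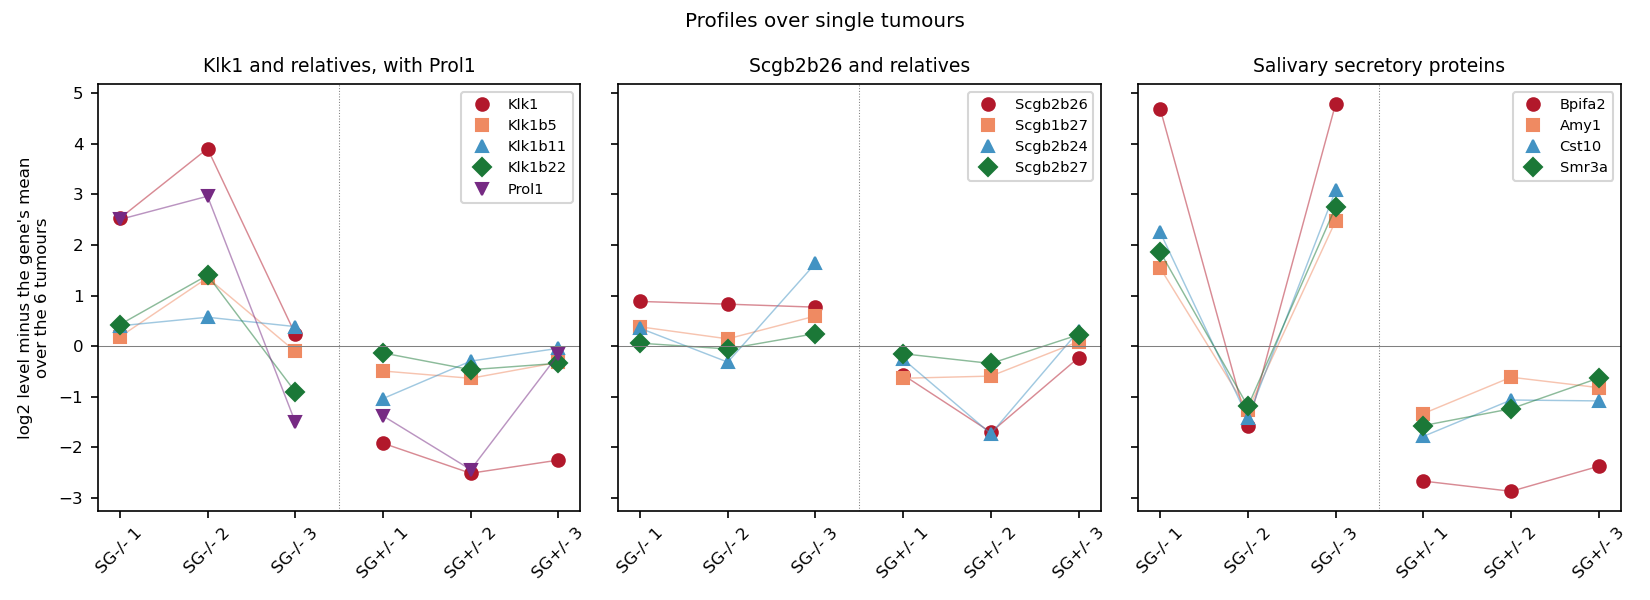
Log2 level minus each gene's mean over the 6 tumours (vertical axis) for single tumours (horizontal axis, SG-/- left of SG+/-). Thin lines join the values of 1 gene within a genotype and mark no order. Klk1, Klk1b5, Klk1b22 and Prol1 peak in SG-/- replicate 2, where Bpifa2, Amy1, Cst10 and Smr3a are the lowest of the SG-/- tumours. Klk1b11 and Scgb2b26 are nearly level over the SG-/- tumours.

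The salivary list as a whole, which includes Prol1, had a mean log2 level of 9.05, 7.51 and 9.40 in SG-/- tumours, against 7.21 to 8.07 in SG+/- tumours. Of its 17 measured members, 12 lay higher and 5 lower in SG-/- tumours; their median difference was 0.42, and none lay under the dim level in all tumours. By limma 0 passed an adjusted p of 0.05, and 4 higher and 1 lower had an unadjusted p under 0.05. Of all genes, 1.43% were higher and 0.685% lower at that unadjusted p. Bpifa2 and Pip, the prolactin-inducible protein, were 5.27 and 2.14 higher. Dcpp2, a salivary secretory protein, stood at 6.55, 4.71 and 7.43 in SG-/- tumours and at 7.43, 10.66 and 8.22 in SG+/- tumours, a difference of -2.54 (limma adjusted p = 1.00) with the nearest values of the genotypes almost touching. Aqp5, a water channel of acinar cells, was also lower without overlap, with a difference of -0.21. Whether salivary tissue has a part in the levels of Klk1, Scgb2b26 and Scgb1b27 was not tested. Of the granular tubule products of the submandibular gland 3 of 6 were measured, with Egf differing by 0.12, Nrtn by -0.35 and Crisp3 by 1.16. By limma 0 of the 3 passed an adjusted p of 0.05. Crisp3 alone had an unadjusted p under 0.05, which 2.11% of all genes had in either direction. The 7 measured lacrimal and Harderian genes lay at a median of -0.01, and 5 lay under the dim level in all tumours. None of the 7 had an unadjusted limma p under 0.05, with Lcn11, Obp1a and Esp15 differing by -0.01, -0.37 and -0.11.

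In the pathway that Klk1 feeds, 0 of 15 measured kininogens, kinin receptors and kinin-degrading peptidases passed an adjusted p of 0.05 in limma. At an unadjusted p under 0.05, 1 was higher and 1 lower, against 1.43% and 0.685% of all genes. Cpm, a carboxypeptidase that trims kinins, stood at 8.65, 7.82 and 8.52 in SG-/- tumours and at 9.76, 11.16 and 9.92 in SG+/- tumours. The genotypes did not overlap, and the difference was -1.95 (limma adjusted p = 1.00). Kng1, a kininogen, differed by 0.08. Kng2, another substrate of kallikreins, stood at 5.99, 5.14 and 5.57 in SG-/- tumours and at 7.64, 7.25 and 5.51 in SG+/- tumours. SG+/- replicate 3 lay among the SG-/- values, and the difference was -1.23 (limma adjusted p = 1.00). The receptors Bdkrb1 and Bdkrb2 differed by 0.06 and 0.09, and Ace, which degrades bradykinin, by -0.48. Enpep, an aminopeptidase, was higher without overlap by 0.34.

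Of 9 measured inhibitors and targets of kallikreins, 0 passed an adjusted p of 0.05 in limma. With an unadjusted p under 0.05 there were 1 higher and 1 lower, where all genes had 1.43% and 0.685%. A2m, a broad protease inhibitor, stood at 6.79, 6.94 and 6.69 in SG-/- tumours and at 10.25, 9.51 and 7.30 in SG+/- tumours. The genotypes did not overlap, and SG+/- replicate 3 lay near the SG-/- values. Its difference was -2.22 (limma adjusted p = 1.00). Serping1, which inhibits plasma kallikrein, was higher without overlap by 0.80, and Spink5, the inhibitor of Klk5, Klk7 and Klk14 in skin, differed by 0.30.

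Among other lists, 0 of 12 genes of differentiated keratinocytes, where several kallikreins of the Klk4 to Klk15 group act, had an unadjusted limma p under 0.05, with Krt1 differing by 0.18 and Sbsn by -0.13. None of the 10 measured luminal mammary genes reached it, with Krt8 differing by 0.13, Esr1 by 0.42 and Foxa1 by 0.89, nor did any of 8 milk protein genes, with Csn1s1 differing by 0.08, Csn1s2a by -0.22 and Glycam1 by 0.36. Of 6 genes of airway club cells, where Scgb1a1 is made, 0 reached it, and Cyp2f2, Sftpd and Aldh1a7 differed by -0.16, 0.25 and -0.19. All 5 measured genes of the steroid response lay lower in SG-/- tumours, at a median of -0.27, where 46.3% of all genes lay higher. An unadjusted limma p under 0.05 was reached by 1 of them, against 2.11% of all genes in either direction. Per1 differed by -0.80 and Fkbp5 by -0.38, and the genotypes overlapped in both. The differences of Zbtb16 and Azgp1 were small, at -0.07 and -0.06. No gene of these 5 lists passed an adjusted p of 0.05 in limma.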

How the data were processed

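RNA from 6 tumours (3 SG-/-, 3 SG+/-) was measured on 1 Affymetrix whole-transcript array each. The authors deposited log2 values per probe set after RMA, per the series description. Per the submitters' processing notes, Expression Console from Affymetrix was used with RMA and limma, and no version is given. There were 33793 probe sets with 0 missing values. The platform table gave 1 symbol for 23521 of them and several for 1814, 8458 stay unnamed here, and the probe set with the highest mean was kept, leaving 22180 genes. All 47 members had an Entrez ID in RefSeq (GRCm38.p6), used for names, gene order and windows around starts.

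All genes were fitted with lmFit and eBayes (limma 3.58.1, R 4.3.3), and two-sided p-values were adjusted by Benjamini and Hochberg's method over the 22180 genes, with 0.05 as the threshold. The fit was tried on simulated data with independent noise and arrays of equal quality. The arrays here differ in spread, so that trial does not speak for the results above. The mice share no pairing in the labels. Replicate numbers follow the order of deposition and only name a tumour. The p-values set each difference between genotypes against the spread among tumours of the same genotype, which eBayes adjusts with the spread of all genes. The number of arrays limits the precision. Local alignments used Biopython 1.88 and plots matplotlib 3.10.9 under Python 3.11.15.

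Members and lists were chosen with earlier results of these data known. Named were Klk1, Scgb2b26, members with a range of at least 1, members without overlap and a difference of at least 0.5, the 5 nearest members and genes by profile (of all genes without predicted ones, receptors or small RNAs), and of each list the member written first and the 2 with the smallest p. Further list genes, and members in counts, were named after their values were seen. Alternatives were to leave out dim genes, quantile normalization again, trend and robust eBayes, array weights, the mean of all probe sets, centring on brighter genes and leaving out each mouse. The receptor mean as a covariate was added after the data were seen.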

Additional observations from a re-analysis of the deposited data

How the results depend on the processing

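Of 239 values of 19 members under the alternatives, 223 kept the sign and 16 changed it. None of the 45 members for which tests are given passed an adjusted p of 0.05 in limma under any of these. Klk1 and Scgb2b26 are again given without a test. With array weights Scgb1b20 differed by -0.34, Scgb1b3 by -0.10, Scgb2b18 by -0.38 and Scgb2b7 by -0.28. Leaving out single mice gave ranges from -0.0575 to 0.76 for Klk10, from -0.54 to 0.0618 for Klk1b27, from -0.17 to 0.33 for Scgb1b20, from -0.17 to 0.55 for Scgb1b3, from -0.31 to 0.21 for Scgb2b18, from -1.17 to 0.31 for Scgb2b2, from -0.96 to 0.29 for Scgb2b20 and from -0.0469 to 0.46 for Scgb2b7. The difference of Klk1 lay between 3.61 and 5.44 and that of Scgb2b26 between 1.23 and 1.96. With array weights Klk1 was 5.81 higher, Klk1b5 1.54, Klk14 0.34, Scgb1b27 0.40 and Scgb2b24 0.10, while Klk1b22 differed by 1.498, Klk10 by 0.0087, Scgb1c1 by -0.16, Scgb2b2 by -1.68 and Scgb2b20 by -0.89. SG-/- replicate 2 had a weight of 4.95 and SG-/- replicate 3 one of 0.197.

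Of the 45 members other than Klk1 and Scgb2b26, 4 had an unadjusted limma p under 0.05, against 469 of all 22180 genes (2.11%). Leaving out single mice gave between 3 and 5 members, when all genes gave between 327 and 1200. Array weights gave 10 members, when all genes rose to 2569. Those without overlap numbered 6, where all genes had 6.03%, and 3 with dim genes left out, which removes Klk13, Klk14 and Klk15. Between 7 and 13 lacked overlap without single mice, where fewer tumours make separation easier. Among the alternatives, the share of all genes was counted only without SG-/- replicate 3, at 21.6%. The counts of members without overlap under the other alternatives therefore stand without a background, and nothing is read from them. Over all genes 0 passed an adjusted p of 0.05, between 0 and 1 without single mice (Bpifa2 without SG-/- replicate 2) and 1 (Srgn) with the receptor covariate. Of all genes, 1039 had an unadjusted limma p under 0.05 with the receptor covariate, against 469 without it. The causes were not tested. No paired analysis was possible because the labels give the mice no shared numbers.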

Other observations

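The 6 probe sets that carry several family symbols were not assigned to a gene. The one shared by Klk1b26 and Egfbp2 stood at 7.30, 8.36 and 7.53 in SG-/- tumours and at 6.16, 7.16 and 7.39 in SG+/- tumours, with its highest value in SG-/- replicate 2, as in Klk1. The genotypes overlapped, and the difference was 0.83. The 3 probe sets shared by Scgb1b genes were 0.26, 0.33 and 0.38 higher in SG-/- tumours, and each was highest in SG-/- replicate 3, at 8.93, 8.28 and 9.29. The genotypes overlapped in each. SG-/- replicates 1 and 2 stood at 7.31 and 7.34, 6.98 and 6.82, and 7.88 and 7.57, against SG+/- means of 7.60, 7.03 and 7.86. The 2 shared by Scgb2b20 and Scgb2b7 had the same values on every array and differed by -0.13.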
